A study of Mus musculus with 24 samples.

Results

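The genes described here encode the glycosyltransferases that build mucin-type and related glycans and the sulfotransferases that decorate them, as measured in the terminal ileum of conventional and germ-free mice. They were taken by symbol from the annotation of the array, as all genes whose symbol starts with Fut, B3gnt, B3galt, B4galt, B4galnt, Galnt, Gcnt, C1galt, St3gal, St6gal, St8sia or Chst for which at least 1 probe set names no other gene. This gave 86 of the 18820 genes tested. Another 6 genes of these families share every probe set with a neighbouring gene and were not analysed here (B3gnt4, B3gntl1, B4galt2, Galnt5, St3gal6 and St6galnac2).

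RNA of 24 male C57BL/6OlaHsd mice of 8 weeks old was read on 24 Affymetrix Mouse Gene 1.1 ST arrays, in 6 groups of 4 mice. Conventional (specified pathogen-free) and germ-free mice received water, short-chain β2→1-fructan (oligofructose) or long-chain β2→1-fructan (inulin) by gavage, 10 mg per day for 5 days, on a D12450B diet with 10% fat. The conventional mice were bought from Envigo and the germ-free mice came from the breeding colony of the Radboud University, so that colonization and colony cannot be told apart. For germ-free mice the short-chain β2→1-fructan was passed through a 0.2 micron filter and the long-chain β2→1-fructan was irradiated with 25 kGy, which broke down part of its longest chains, so that the fructans of conventional and germ-free mice were not prepared in the same way. All values are log2 expression values on the scale of the deposited data, and a difference of 1 is a change of 2-fold. A gene is called here at an unadjusted p under 0.01 with a fold change over 1.3. Beside the calls stand the genes that pass 0.05 after Benjamini-Hochberg adjustment.

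Mucin-type O-glycans begin with N-acetylgalactosamine (GalNAc), which enzymes of the Galnt family attach to serine and threonine. C1galt1 and its chaperone C1galt1c1 add galactose to give core 1, Gcnt enzymes add a branch of N-acetylglucosamine (GlcNAc) to give core 2, and B3gnt6 makes core 3. The chains are lengthened in turn by GlcNAc transferases (B3gnt) and galactosyltransferases (B3galt, B4galt), and end in fucose, sialic acid, GalNAc or sulfate. Some members act on glycosphingolipids (B4galt6, B4galnt1, St3gal5) or proteoglycans (B4galt7, B3galt6, several Chst genes) instead. In the small intestine, fucose at the end of epithelial glycans is known to depend on colonization and serves as a nutrient for bacteria.

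The arrays carry RNA of whole pieces of ileum, in which fewer cells of a type and less RNA per cell cannot be told apart. The ileal marker Fabp6 lay between 12.4 and 12.8 in all 24 mice, and the mean of 6 goblet cell genes between 11.3 and 11.5. Of 8 enterocyte genes 1 was called higher in germ-free mice and 0 lower (list mean 11.54 to 12.11 against 11.54 to 11.75). The enterocyte means did not overlap on water (11.77 to 12.11 against 11.65 to 11.75) or after short-chain β2→1-fructan (11.75 to 11.88 against 11.54 to 11.65). After long-chain β2→1-fructan they did. The mean of 3 ileal enterocyte genes, Fabp6 among them, was 11.10 to 11.33 against 11.02 to 11.18, with 0 called. By treatment, these means were apart only after short-chain β2→1-fructan (11.23 to 11.32 against 11.02 to 11.15). Other cell types also differed between germ-free and conventional mice. All 5 genes of T cells and intraepithelial lymphocytes were called lower in germ-free mice, with a list mean of 3.86 to 4.80 against 6.00 to 6.99 in conventional mice. Of 4 plasma cell genes 3 were called lower (list mean 5.58 to 6.43 against 6.86 to 7.46), of 5 Paneth cell genes 3 (9.68 to 10.2 against 10.4 to 10.8) and of 4 smooth muscle genes 3 (9.15 to 10.2 against 10.2 to 10.5). Of 3 neuron and glia genes 2 were called lower (4.57 to 5.07 against 5.04 to 5.49), of 3 endothelial genes 1 (5.81 to 6.18 against 6.21 to 6.77), of 4 macrophage and dendritic cell genes 1 (5.89 to 6.42 against 6.39 to 6.65) and of 5 B cell genes 1 (3.47 to 4.77 against 3.88 to 4.15). In the B cell list, germ-free mice 3 and 4 of the long-chain group were the highest of all mice, at 4.54 and 4.77. Of 5 crypt and stem genes 1 was called lower and 0 higher (7.70 to 8.12 against 7.94 to 8.23). All 3 adipocyte genes were called higher (6.07 to 8.41 against 5.34 to 6.96). No defining marker of these lists is at 0 on this scale, but a value above 0 does not by itself show that a gene is expressed. The part of these cell types in the differences between germ-free and conventional mice below was not tested, unless a value is given.

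Germ-free and conventional mice were compared first over all treatments, as the mean of the differences on water and on each of the fructans. The genes with the largest differences encode enzymes that branch, extend and cap glycans, and they were lower in germ-free mice: B3galt5 by 4.77-fold, Gcnt1 by 4.18-fold and Fut2 by 3.35-fold. B3galt2, B4galt6, B4galnt1 and B4galnt4 were higher, by 1.94, 1.67, 1.40 and 1.32-fold. In all 12 members were called (4 higher and 8 lower), or 14.0% of the 86, while 8.2% of all genes were called (2.99% higher and 5.22% lower). At an adjusted p under 0.05 it was 35 members (13 higher and 22 lower), or 40.7% of them, against 34% of all genes (18.6% higher and 15.4% lower). The median difference of the members was -0.05, that of all genes 0.03, and 34 members had a positive and 52 a negative difference.

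**Figure D1:**
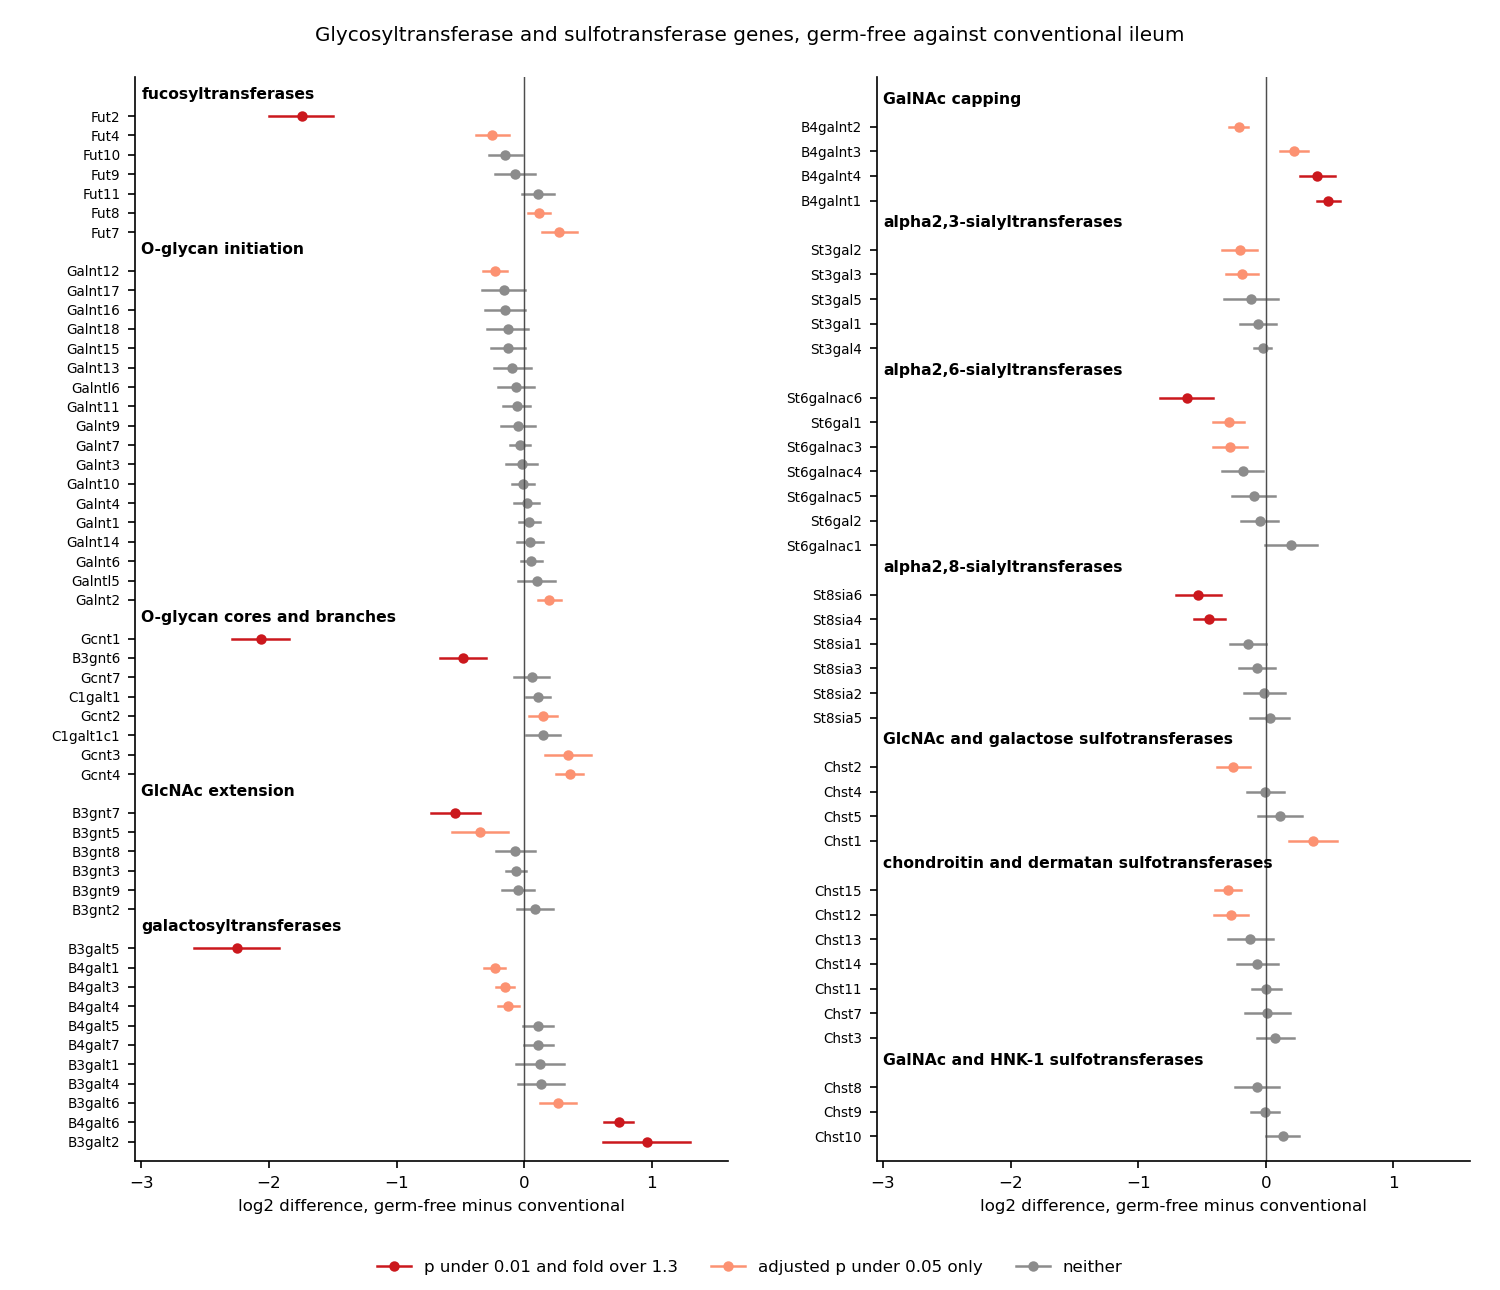
Difference between germ-free and conventional mice (horizontal axis, log2, mean over water and both fructans) of the 86 genes, grouped by role, with 95% confidence intervals from the fit of all 24 arrays. Dark red genes were called at p under 0.01 and a fold change over 1.3, light red genes only at an adjusted p under 0.05 and grey genes at neither; B3galt5, Gcnt1 and Fut2 lie near -2 and the other genes between -0.62 and 0.96.

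Read by treatment, 13 members were called on water (8.74% of all genes), 15 after short-chain β2→1-fructan (8.76% of all genes) and 16 after long-chain β2→1-fructan (9.69% of all genes), and 18, 16 and 22 had an adjusted p under 0.05 (13.5%, 15% and 15.9% of all genes). The 9 members called in each of the 3 were B3galt5, B3gnt6, B4galnt1, B4galnt4, B4galt6, Fut2, Gcnt1, St6galnac6 and St8sia6. In 6 members, the values of the 12 germ-free mice did not overlap those of the 12 conventional mice, where 3.75% of all genes did not overlap: B3galt5, Chst15, Fut2 and Gcnt1 lay lower and B4galnt1 and B4galt6 higher in germ-free mice. Of the 12 members called over all treatments, B4galnt4 lay nearest to the fold threshold and lost its call without germ-free mouse 4 of the short-chain group, at a difference of 0.37.

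A further 13 members were called in 1 or 2 of the comparisons by treatment. On water these were St8sia4 (-0.50) and St6gal1 (-0.40), which were lower in germ-free mice, and B3galt6 (0.41) and Gcnt4 (0.38), which were higher. After short-chain β2→1-fructan they were B3gnt7 (-0.72), B3gnt5 (-0.52), St3gal5, the GM3 ganglioside synthase (-0.49), Fut4 (-0.44), Chst1 (0.44) and B3galt2 (1.49). After long-chain β2→1-fructan they were B3gnt7 (-0.68), St8sia4 (-0.56), Chst12 (-0.40), St6galnac3 (-0.38), Gcnt3 (0.44), Gcnt4 (0.42) and B3galt2 (0.88).

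Many of these calls by treatment lay near the threshold and were lost when 1 mouse was left out, in part with a difference as large as before. On water, the call was lost for B3gnt6 without conventional mouse 2, 3 or 4 or germ-free mouse 3 or 4 (-0.31 to -0.45), for St6galnac6 without conventional mouse 1, 2 or 3 or germ-free mouse 2 or 4 (-0.42 to -0.51), for B4galnt4 without conventional mouse 3 or 4 or germ-free mouse 2 or 4 (0.32 to 0.38), for Gcnt4 without conventional mouse 2 or 3 or germ-free mouse 1 or 4 (0.34 to 0.37), for St6gal1 without germ-free mouse 1 or 4 (-0.36 and -0.37) and for B3galt6 without mouse 3 of either group (0.32 and 0.33). With the short-chain fructan it was lost for St8sia6 without any germ-free mouse or conventional mouse 1, 3 or 4 (-0.33 to -0.44), for B3gnt5 without any germ-free mouse or conventional mouse 2 or 4 (-0.36 to -0.55), for St3gal5 without germ-free mouse 1, 3 or 4 or conventional mouse 1 or 3 (-0.34 to -0.50), for Chst1 without germ-free mouse 1, 3 or 4 or conventional mouse 2, 3 or 4 (0.32 to 0.46), for Fut4 without germ-free mouse 2 (-0.36) and for B4galnt4 without germ-free mouse 4 or conventional mouse 3 (0.33 and 0.37). With the long-chain fructan it was lost for B3gnt6 without conventional mouse 2 or 3 or germ-free mouse 1, 2 or 3 (-0.40 to -0.44), for St6galnac6 without conventional mouse 1 or 3 or germ-free mouse 4 (-0.39 to -0.47), for B4galnt4 without conventional mouse 1 or 3 or germ-free mouse 2 or 4 (0.35 to 0.37), for Gcnt3 without conventional mouse 2 or 3 or germ-free mouse 1, 2 or 3 (0.32 to 0.45), for Gcnt4 without germ-free mouse 1 (0.37), for Chst12 without conventional mouse 2 or 4 or germ-free mouse 4 (-0.34 to -0.36) and for St6galnac3 without conventional mouse 2 or germ-free mouse 4 (-0.32 and -0.30). The calls of Gcnt1, B3galt5, Fut2, B4galt6 and B4galnt1 were kept in each of the 3 treatments without any 1 mouse. When the probe sets of B4galnt1 were averaged, its difference with the short-chain fructan was 0.30 and was not called.

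Among the 8 genes of cores and branches, Gcnt1, the core 2 enzyme of leukocytes and epithelium, stood apart. Its lowest, median and highest values were 5.73, 6.35 and 7.01 in the 12 conventional mice and 4.0, 4.39 and 4.63 in the 12 germ-free mice. No germ-free mouse reached the lowest conventional mouse. The list of T cells and intraepithelial lymphocytes, which also express this gene, did not overlap between the same mice either (3.86 to 4.80 against 6.00 to 6.99), and its part in the difference of Gcnt1 was not tested. The difference was -2.06 (SE 0.11, adjusted p = 5.4e-14), and by treatment it was -1.95 on water, -1.84 with the short-chain and -2.40 with the long-chain fructan. B3gnt6, which makes core 3, was lower by 1.39-fold (difference -0.48, SE 0.09, adjusted p = 7.8e-05), with 5.44 to 5.99 in conventional and 4.98 to 5.74 in germ-free mice, which overlap. The other branching enzymes went the opposite way. Gcnt4 (0.36, adjusted p = 2.8e-06), Gcnt3, the mucin branching enzyme of mucus-producing epithelia (0.34, adjusted p = 0.0033), and Gcnt2, which branches poly-N-acetyllactosamine chains (0.15, adjusted p = 0.033), were higher in germ-free mice at an adjusted p under 0.05, below a fold change of 1.3. C1galt1 and C1galt1c1 differed by 0.11 (adjusted p = 0.076) and 0.15 (adjusted p = 0.079) and passed neither rule.

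Of 11 galactosyltransferase genes, B3galt5, which makes type 1 chains by adding galactose to GlcNAc, had the largest difference, with 3.06 to 3.96 against 4.55 to 6.88 in conventional mice. In conventional mice it varied widely: the 4 mice on water had 4.55, 6.08, 6.38 and 5.13. The germ-free mice on water had 3.96, 3.88, 3.45 and 3.44 and all lay lower. The difference over all treatments was -2.25 (SE 0.16, adjusted p = 2.6e-11). B4galt6, a lactosylceramide synthase of the glycosphingolipid pathway, went the other way, from 8.71 to 9.09 in conventional to 9.33 to 9.93 in germ-free mice (0.74, SE 0.06, adjusted p = 5.2e-11). B4galt1, the general β1,4-galactosyltransferase of the Golgi, was lower by 0.23 (adjusted p = 5.4e-05), B4galt3 by 0.15 and B4galt4 by 0.13, each at an adjusted p under 0.05 but under the fold threshold. B3galt6, which builds the linkage of proteoglycan chains, was higher by 0.27 (adjusted p = 0.0036).

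B3galt2, a galactosyltransferase gene, was higher by 0.96 (SE 0.17, adjusted p = 4.7e-05), but its values were uneven. Germ-free mice 1 to 4 on water had 4.16, 5.73, 5.83 and 4.44, and the conventional mice on water 4.58, 4.32, 4.64 and 4.58, so that on water the groups overlapped and the difference of 0.51 did not pass (adjusted p = 0.28). After short-chain β2→1-fructan the groups were apart, with 5.36 to 5.71 in germ-free and 3.73 to 4.26 in conventional mice (1.49, adjusted p = 0.00062). After long-chain β2→1-fructan it was 0.88 (adjusted p = 0.038), and that call was lost without conventional mouse 2, 3 or 4 (0.76, 0.84 and 0.84) or germ-free mouse 1 (0.59). The mean of the 3 adipocyte genes in the same 4 germ-free mice on water was 6.07, 7.91, 8.41 and 6.65, so that the mice with more B3galt2 were those with more adipocyte RNA. The conventional mouse with the highest B3galt2, at 4.98 in the long-chain group, also had the highest adipocyte mean of the conventional mice, 6.96. The part of attached fat in the difference of B3galt2 was not tested.

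To show the sequence before the transcription start, the 250 bases upstream of the first annotated start are printed for Gcnt1 and B3galt5, the members with the largest differences that are in the promoter table, and for B3gnt7, which is described with the fructans. They are RefSeq sequences of GRCm38 (chr19:17372845-17373094, minus strand, for Gcnt1; chr16:96235551-96235800, plus strand, for B3galt5; chr1:86302971-86303220, plus strand, for B3gnt7). Promoters were found in the table for 65 of the 86 members, with 85 windows of 250 bases. Capitals mark matches, on either strand, to the TATA box (TATAAA) in Gcnt1, to the STAT palindrome (TTCNNNGAA) in B3galt5 and to the E-box (CACGTG) in B3gnt7.
Gcnt1: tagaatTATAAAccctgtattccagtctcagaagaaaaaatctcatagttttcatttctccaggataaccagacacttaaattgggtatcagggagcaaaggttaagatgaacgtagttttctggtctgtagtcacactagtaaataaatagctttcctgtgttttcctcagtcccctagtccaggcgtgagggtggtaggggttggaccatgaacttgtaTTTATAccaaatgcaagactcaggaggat
B3galt5: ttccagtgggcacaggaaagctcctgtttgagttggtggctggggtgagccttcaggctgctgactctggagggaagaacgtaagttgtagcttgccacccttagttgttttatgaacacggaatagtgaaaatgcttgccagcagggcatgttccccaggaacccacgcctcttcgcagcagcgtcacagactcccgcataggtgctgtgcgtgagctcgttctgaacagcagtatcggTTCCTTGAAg
B3gnt7: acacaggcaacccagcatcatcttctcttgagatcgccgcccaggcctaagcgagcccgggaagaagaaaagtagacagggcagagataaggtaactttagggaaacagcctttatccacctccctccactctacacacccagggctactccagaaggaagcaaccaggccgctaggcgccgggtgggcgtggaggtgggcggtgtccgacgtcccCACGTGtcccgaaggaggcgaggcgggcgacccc
In Gcnt1 the TATA box matches lie at -244 to -239 and at -29 to -24 from the start, the second of them read on the opposite strand. The STAT palindrome of B3galt5 lies at -10 to -2, and the E-box of B3gnt7 at -34 to -29. The TATA box was present in 12.4% of all 32851 promoter windows and in 2 of the 85 windows of members (2.35%). The STAT palindrome was present in 7.02% of all windows and 5 of the members' (5.88%), and the E-box in 6.02% and 6 (7.06%). The motifs do not overlap in these 3 windows. B3galt5 has another 2 starts in the table, and an E-box match lies in the window of another of them. No window of Fut2 was used here.

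Of the 7 fucosyltransferase genes, Fut2 (chr7:45648591-45666394 of GRCm38), which adds the α1,2-linked fucose at the end of epithelial glycans, was the only one called over all treatments, and Fut4 was called after short-chain β2→1-fructan alone (-0.44). The lowest, median and highest values of Fut2 were 5.61, 6.71 and 7.49 in conventional mice and 4.64, 4.90 and 5.34 in germ-free mice. The 2 sets of mice did not overlap, and the difference was -1.75 (SE 0.12, adjusted p = 1.5e-11). It was -1.28 on water, -2.16 with the short-chain and -1.79 with the long-chain fructan. Fut4, of the α1,3-fucosyltransferases that make Lewis x, was lower by 0.25 (adjusted p = 0.0031). Fut7, known from leukocytes, was higher by 0.27 (adjusted p = 0.0020) at values of 2.80 to 3.65 in all mice, and Fut8, which adds the core fucose of N-glycans, was higher by 0.12 (adjusted p = 0.038).

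**Figure D2:**
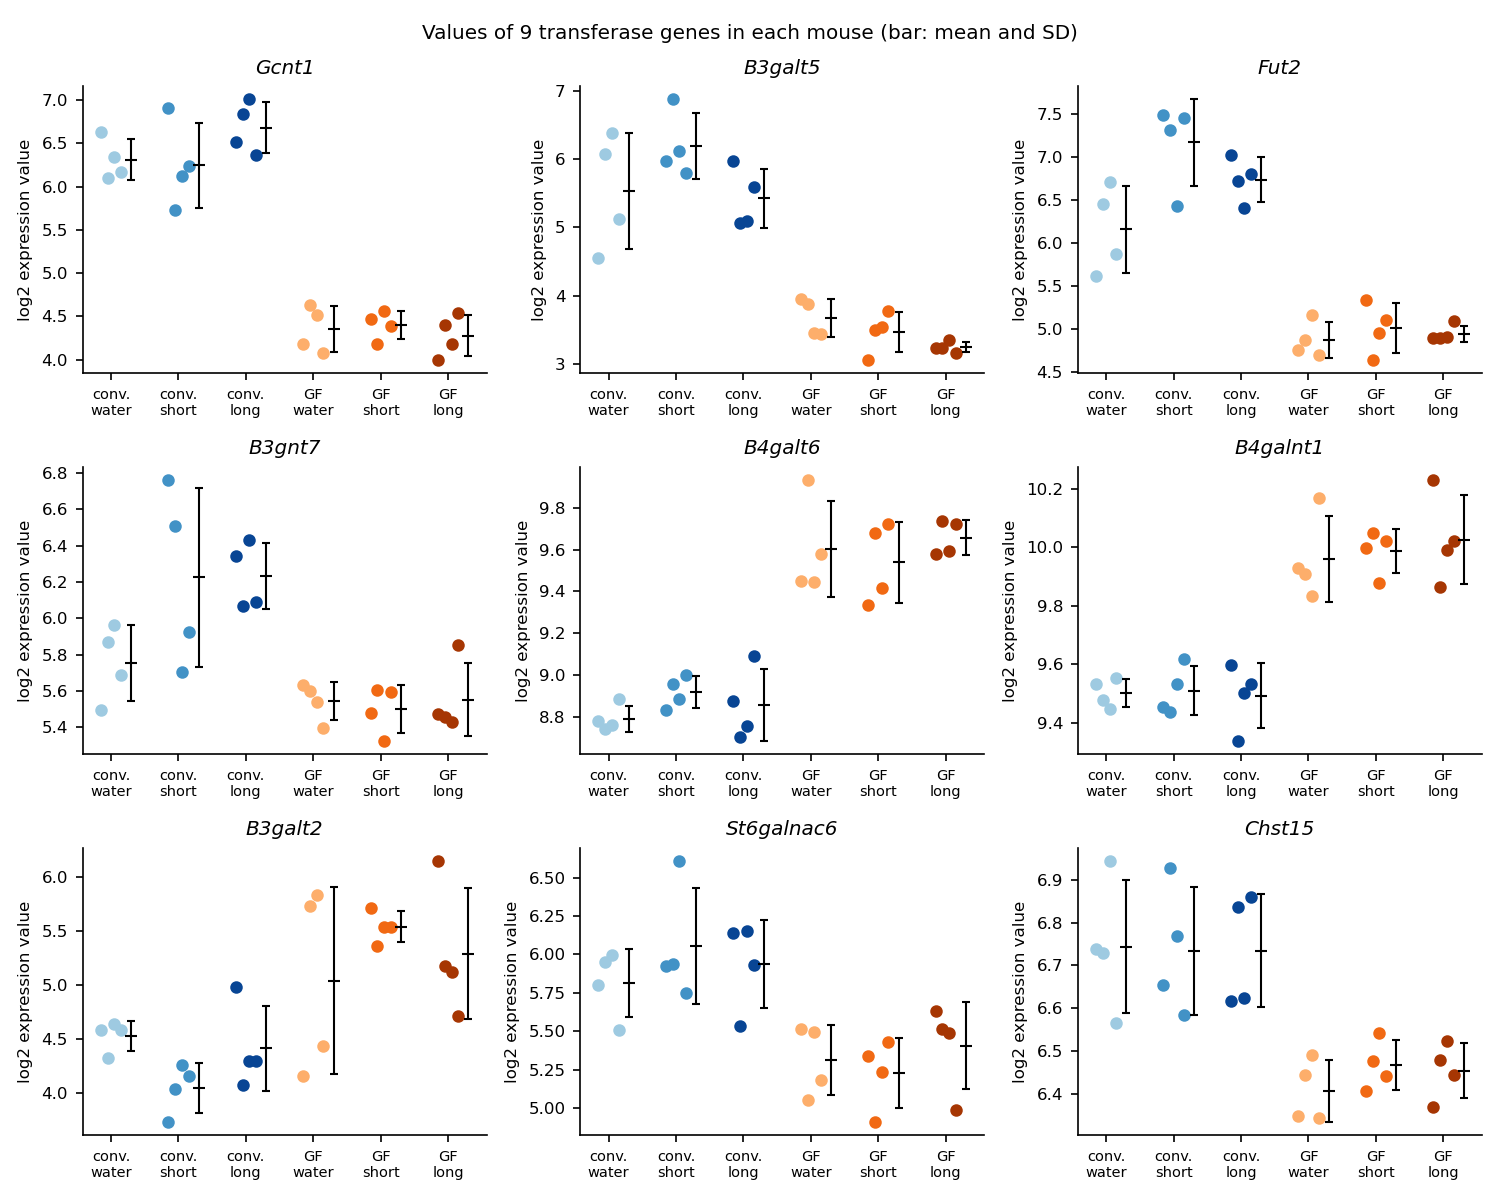
Log2 expression values (vertical axes, on separate scales that do not start at 0) of 9 genes in each of the 24 mice, by group on the horizontal axes (conv. conventional, GF germ-free). Points are single mice, and the bar beside each group is its mean and SD (n = 4); Gcnt1, B3galt5, Fut2 and Chst15 lie lower, and B4galt6 and B4galnt1 higher, in every germ-free mouse than in any conventional mouse.

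Of the 6 genes of GlcNAc extension, B3gnt7, which extends poly-N-acetyllactosamine and keratan sulfate chains, was called lower in germ-free mice over all treatments (-0.54, SE 0.09, adjusted p = 4.6e-05). The difference on water was -0.21 and did not pass (adjusted p = 0.45), whereas it was -0.72 with the short-chain fructan (adjusted p = 0.0025) and -0.68 with the long-chain fructan (adjusted p = 0.0042). B3gnt5, which starts the lacto-series of glycosphingolipids, was lower by 0.35 at an adjusted p of 0.013. B3gnt3, which extends core 1 chains and had values of 9.93 to 10.4 in all mice, differed by -0.06 (adjusted p = 0.21).

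All 4 genes of GalNAc capping passed the adjusted threshold (34% of all genes), and they did not move one way. B4galnt1, the GM2 ganglioside synthase, was higher, from 9.34 to 9.62 in conventional mice to 9.83 to 10.2 in germ-free mice (0.49, SE 0.04, adjusted p = 1.0e-09). Its other probe set had group means of 5.25 to 5.43 in conventional and 5.56 to 5.87 in germ-free mice. B4galnt4 (0.40, adjusted p = 2.6e-05) and B4galnt3 (0.22, adjusted p = 0.0025), which make GalNAc-GlcNAc termini, were higher too. B4galnt2, which caps sialylated chains with GalNAc to form the Sd(a) antigen, was lower by 0.21 (adjusted p = 4.0e-05), with 11.72 to 11.99 in conventional and 11.55 to 11.83 in germ-free mice.

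Of the 18 sialyltransferase genes 16 had a negative difference (germ-free minus conventional), some of them near 0, as had 52 of all 86 members. The median difference of all genes was 0.03, and their share of negative differences is not given here. Among the 18, 3 were called lower and 0 higher (5.22% and 2.99% of all genes), and 7 were lower at an adjusted p under 0.05 (15.4% of all genes). No test of the group was made. St6galnac6, which adds α2,6-linked sialic acid to gangliosides and related chains, was lower by 1.54-fold (-0.62, SE 0.10, adjusted p = 2.0e-05), with 5.51 to 6.61 in conventional and 4.91 to 5.63 in germ-free mice. Its neighbour on chromosome 2, St6galnac4, ends 12 bases before St6galnac6 begins and differed by -0.18 (adjusted p = 0.076). St8sia6 (-0.53, adjusted p = 1.9e-05) and St8sia4, a polysialyltransferase (-0.44, adjusted p = 1.5e-06), were called. St8sia4 had values of 4.79 to 5.39 in conventional and 4.60 to 4.96 in germ-free mice. St6gal1, which sialylates N-glycans, was lower by 0.29 (adjusted p = 0.00021). St3gal4 kept values between 11.4 and 11.7 in all 24 mice and differed by -0.03 (adjusted p = 0.61).

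Of 18 genes of O-glycan initiation, 0 were called in this comparison by limma (8.2% of all genes). Galnt2 was higher by 0.20 (adjusted p = 0.00085) and Galnt12 lower by 0.23 (adjusted p = 0.00021), and these were the 2 of the group with an unadjusted p under 0.05 (41.9% of all genes). Galnt7, Galnt6 and Galnt1, with values of 8.83 to 9.12, 8.52 to 8.97 and 8.37 to 8.74 in all mice, differed by -0.03, 0.05 and 0.04. Of 14 sulfotransferase genes, 0 were called by limma (8.2% of all genes). At an adjusted p under 0.05, 1 was higher and 3 were lower (18.6% and 15.4% of all genes), and 5 had an unadjusted p under 0.05 (41.9% of all genes). Chst15, which makes the doubly sulfated GalNAc of chondroitin sulfate E, did not overlap between germ-free (6.34 to 6.54) and conventional mice (6.56 to 6.94), with a difference of -0.29 (SE 0.05, adjusted p = 3.1e-05). Chst12, a chondroitin sulfotransferase, was lower by 0.27 and Chst2, a GlcNAc 6-sulfotransferase, by 0.26, whereas Chst1, a galactose 6-sulfotransferase, was higher by 0.37.

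Mucins, genes of sugar and sulfate supply, and related enzymes that build or break down glycans were read from a list of 63 genes, of which 53 were measured. Over all treatments, 2 were called higher and 3 lower in germ-free mice, and 12 were higher and 14 lower at an adjusted p under 0.05. Of all genes 8.2% were called and 34% passed the adjusted threshold in this comparison. Muc4, a membrane mucin, was lower by 0.75 (SE 0.06, adjusted p = 5.8e-10), with 5.79 to 6.23 in germ-free and 6.45 to 7.09 in conventional mice. The other mucins that passed the adjusted threshold were lower by less: Muc13 by 0.21, Muc1 by 0.20, Muc2, the gel-forming mucin of goblet cells, by 0.12, and Muc3 by 0.11. A4gnt, which caps gland mucins with α1,4-linked GlcNAc, was lower by 0.82 (adjusted p = 2.0e-08), and Fuca1, the lysosomal fucosidase, by 0.39 (adjusted p = 1.1e-09). Ugdh, which makes UDP-glucuronic acid, was higher by 0.82 (adjusted p = 2.4e-09), from 9.47 to 9.88 in conventional to 10.07 to 10.97 in germ-free mice. Fpgt, which makes GDP-fucose from salvaged fucose, was higher by 0.39 (adjusted p = 1.6e-06), and the GDP-fucose carrier gene Slc35c1 by 0.21 (adjusted p = 0.0064). Gmds (0.07), Fcsk (0.03) and Gfus (-0.11), also of GDP-fucose supply, did not pass the adjusted threshold (adjusted p = 0.17, 0.67 and 0.075).

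**Figure D3:**
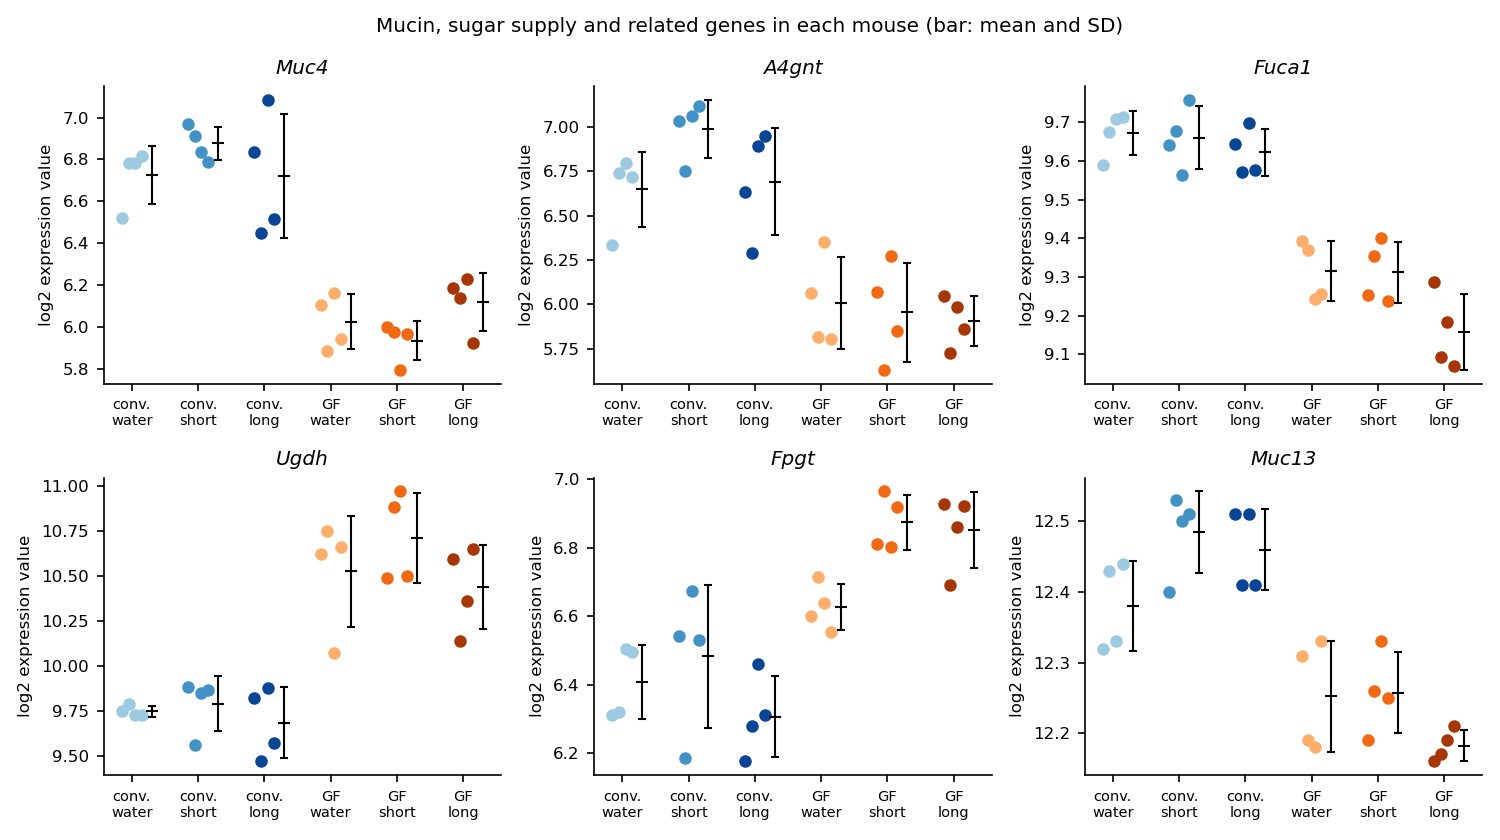
Log2 expression values (vertical axes, separate scales that do not start at 0) of 6 genes of mucins, sugar supply and related enzymes in each of the 24 mice, by group on the horizontal axes (conv. conventional, GF germ-free). Points are single mice and the bar beside each group is its mean and SD (n = 4); Muc4 and Fuca1 lie lower and Ugdh higher in every germ-free mouse than in any conventional mouse, whereas A4gnt, Fpgt and Muc13 overlap.

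The fructans were compared with water next. In conventional mice Fut2 and B3gnt7 were higher after short-chain β2→1-fructan and B3gnt7 after long-chain β2→1-fructan, and no other member was called. This is 2 of 86 members for short-chain β2→1-fructan (0.409% of all genes were called) and 1 for long-chain β2→1-fructan (0.313%). At an adjusted p under 0.05, 0 members passed in either (0% of all genes), and 7 and 4 members had an unadjusted p under 0.05 (5.22% and 5.67% of all genes). Both comparisons use the same 4 mice on water. The study names Fut2 from these same mice, and the rise of both genes was known from them, so that neither is independent evidence here.

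Fut2 had 5.61, 6.45, 6.71 and 5.87 in the conventional mice on water. After short-chain β2→1-fructan it had 7.49, 7.31, 6.42 and 7.45, with 3 of 4 mice above every mouse on water. After long-chain β2→1-fructan it had 7.03, 6.71, 6.40 and 6.80. The change was 1.01 after short-chain β2→1-fructan (2.01-fold, SE 0.21, adjusted p = 0.27, two-sided exact permutation p = 0.086) and 0.58 after long-chain β2→1-fructan (1.49-fold, SE 0.21, unadjusted p = 0.011, adjusted p = 0.86, exact permutation p = 0.11), where 0.029 is the smallest p that 4 mice against 4 allow. The change after long-chain β2→1-fructan passed the fold threshold and missed the call by its p alone. The call after short-chain β2→1-fructan was kept without any 1 of the 8 mice, at changes of 0.83 to 1.26.

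B3gnt7 had 5.49, 5.87, 5.96 and 5.69 on water, 6.76, 6.51, 5.70 and 5.93 after short-chain β2→1-fructan and 6.34, 6.07, 6.43 and 6.09 after long-chain β2→1-fructan. The long-chain mice all lay above the mice on water (0.48, SE 0.16, adjusted p = 0.86, two-sided exact permutation p = 0.029), and groups did not overlap in 5 of 86 members and 4.21% of all genes. The short-chain mice fell into a higher and a lower pair, and overlapped those on water (0.47, SE 0.16, adjusted p = 0.84, exact permutation p = 0.17). The call for short-chain β2→1-fructan was lost without mouse 1 or 4 of the water group (0.38 and 0.45) and without mouse 1 or 2 of the short-chain group (0.29 and 0.38), and for long-chain β2→1-fructan without mouse 1 or 4 of the water group (0.39 and 0.46) or mouse 1 or 3 of the long-chain group (0.44 and 0.41).

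No other member was called in conventional mice, although some had differences as large as that of B3gnt7. B3galt5 differed by 0.66 after short-chain β2→1-fructan (unadjusted p = 0.027, adjusted p = 0.94) with overlapping mice. B3galt2 differed by -0.48 after short-chain β2→1-fructan (SE 0.29, adjusted p = 0.99, two-sided exact permutation p = 0.029), and its 4 mice, at 3.73 to 4.26, all lay below those on water, at 4.32 to 4.64. The adipocyte mean was 5.34 to 6.03 in these short-chain mice and 6.19 to 6.25 on water, and its part in the difference was not tested. Groups did not overlap in 5 of 86 members and 4.08% of all genes. St6gal1 was lower by 0.32 after short-chain β2→1-fructan (unadjusted p = 0.0036, adjusted p = 0.84) at a fold change of 1.25 and was not called, although its mice had 5.30 to 5.64 against 5.78 to 5.89 on water. Of the 53 measured genes of mucins, sugar supply and related enzymes, 0 were called by limma in conventional mice after either fructan, and 3 and 0 had an unadjusted p under 0.05. The median change of the 86 members was 0.00 for the short-chain and 0.01 for the long-chain fructan, and that of all genes was -0.02 in both.

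**Figure D4:**
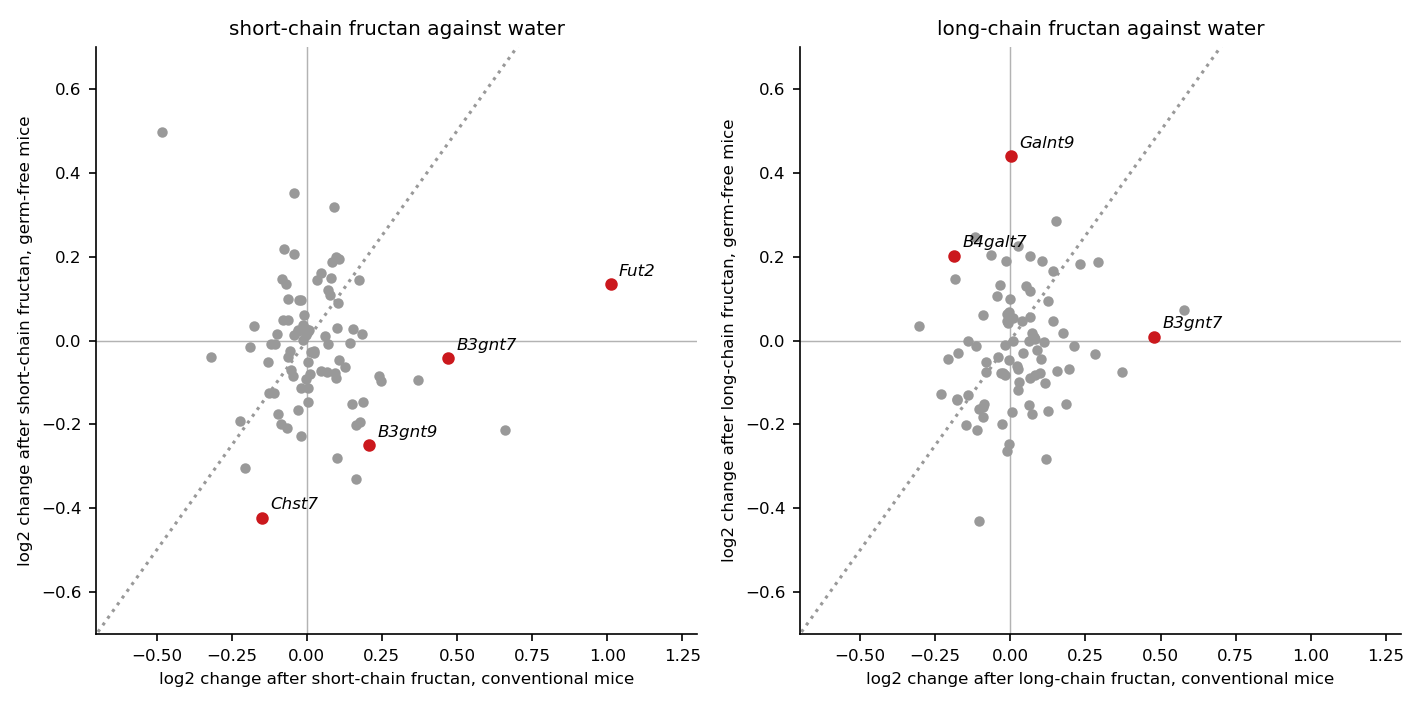
Log2 change against water in conventional mice (horizontal axes) and in germ-free mice (vertical axes) of the 86 genes, for short-chain β2→1-fructan (left) and long-chain β2→1-fructan (right). Red genes were called against water in conventional or germ-free mice or in the difference between them, and the dotted line marks equal change; Fut2 lies at 1.01 and 0.14 on the left and B3gnt7 near 0 in germ-free mice in both.

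In germ-free mice Fut2 did not change detectably after short-chain (0.14, 95% confidence interval -0.30 to 0.57) or long-chain β2→1-fructan (0.07, -0.36 to 0.51), nor did B3gnt7 (-0.04, -0.37 to 0.29, and 0.01, -0.32 to 0.34). Called were Chst7, a chondroitin 6-sulfotransferase gene, after short-chain β2→1-fructan, and Galnt9, a GalNAc transferase known mainly from brain, after long-chain β2→1-fructan. This is 1 of 86 members in each, against 0.579% and 0.855% of all genes. Both genes had low values, below the median level of all genes (5.53), as had Fut2 in all germ-free mice (4.64 to 5.34). On water the mean of Galnt9 was 3.25 in germ-free and 3.53 in conventional mice. At an adjusted p under 0.05, 0 members passed by limma (0% of all genes), and 8 and 7 had an unadjusted p under 0.05 (5.71% and 8.74% of all genes). Galnt9 had 3.15, 3.37, 3.30 and 3.18 on water and 3.68, 3.73, 3.72 and 3.65 after long-chain β2→1-fructan, which do not overlap (difference 0.44, SE 0.11, adjusted p = 0.30, two-sided exact permutation p = 0.029). Groups did not overlap in 3 of 86 members and 3.27% of all genes. Chst7 had 2.77, 2.76, 3.19 and 3.44 on water and 2.49, 2.67, 2.90 and 2.41 after short-chain β2→1-fructan (-0.42, SE 0.15, adjusted p = 0.75, exact permutation p = 0.11), and lost its call without mouse 3 or 4 of the water group (-0.37 and -0.29) or mouse 1, 2 or 4 of the short-chain group (-0.38, -0.44 and -0.35). Of the 53 genes of mucins, sugar supply and related enzymes, 0 were called by limma after either fructan in germ-free mice, with 1 and 5 at an unadjusted p under 0.05.

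Whether the change differs between germ-free and conventional mice was tested as an interaction. For short-chain β2→1-fructan 2 members were called, Fut2 and B3gnt9 (0.707% of all genes), and for long-chain β2→1-fructan 2, B4galt7 and Galnt9 (0.531% of all genes). At an adjusted p under 0.05 it was 0 in both by limma (0% of all genes), and 9 and 5 members had an unadjusted p under 0.05 (5.45% and 3.74% of all genes). The change of Fut2 was smaller in germ-free mice by 0.88 after short-chain β2→1-fructan (difference of changes -0.88, SE 0.30, unadjusted p = 0.0069, adjusted p = 0.90), and its interaction for long-chain β2→1-fructan was -0.51 (SE 0.30, unadjusted p = 0.10). Fut2 lay at 4.64 to 5.34 in germ-free and at 5.61 to 7.49 in conventional mice. RMA shrinks differences of dim probe sets, and the part of this shrinkage in the interaction was not tested. The call of Fut2 was lost in 9 of 16 fits without 1 mouse, at -0.69 without mouse 1 of the conventional water group and at -0.75 to -0.88 without mouse 4 of that group, mouse 1, 2 or 4 of the conventional short-chain group, mouse 2 or 3 of the germ-free water group or mouse 2 or 3 of the germ-free short-chain group. B3gnt9 went in conventional mice from a mean of 4.65 on water to 4.86 after short-chain β2→1-fructan and went from 4.89 to 4.63 in germ-free mice (difference of changes -0.46, SE 0.15, adjusted p = 0.90), and its call was lost in 5 of 16 such fits, at -0.38 to -0.43. B4galt7, which adds the first galactose of the linkage to proteoglycans, went from 5.84 to 5.65 in conventional mice and from 5.75 to 5.95 in germ-free mice after long-chain β2→1-fructan (0.39, SE 0.14, adjusted p = 1.00), and its call was lost in 9 of 16 fits, at 0.30 to 0.40. Galnt9 had means of 3.53 on water and 3.53 after long-chain β2→1-fructan in conventional mice (difference of changes 0.44, SE 0.15, adjusted p = 1.00), and its call was lost in 12 of 16 fits, at 0.34 to 0.45. For B3gnt7 the interactions were -0.51 (unadjusted p = 0.033) and -0.47 (unadjusted p = 0.050) and were not called.

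Both fructans were given at the same dose and for the same time, and differ in chain length, so that they could be compared directly. In conventional mice, 0 members were called by limma between long-chain and short-chain β2→1-fructan (0.213% of all genes were called), 0 had an adjusted p under 0.05 (0% of all genes), and 8 had an unadjusted p under 0.05 (3.63% of all genes). Fut2 differed by -0.43 for long-chain minus short-chain β2→1-fructan (95% confidence interval -0.87 to 0.0012, unadjusted p = 0.051), and B3gnt7 differed by 0.01 (-0.32 to 0.34). In germ-free mice, where the chains had been sterilised in different ways, 1 member was called (1.41% of all genes), 0 had an adjusted p under 0.05 (0% of all genes) and 11 had an unadjusted p under 0.05 (12.7% of all genes). This was Chst7, which was higher by 0.46 after long-chain β2→1-fructan (SE 0.15, adjusted p = 0.25, exact permutation p = 0.057). Without mouse 1 or 4 of the short-chain group (0.42 and 0.39) or mouse 3 or 4 of the long-chain group (0.37 and 0.41) the call of Chst7 was lost.

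**Figure D5:**
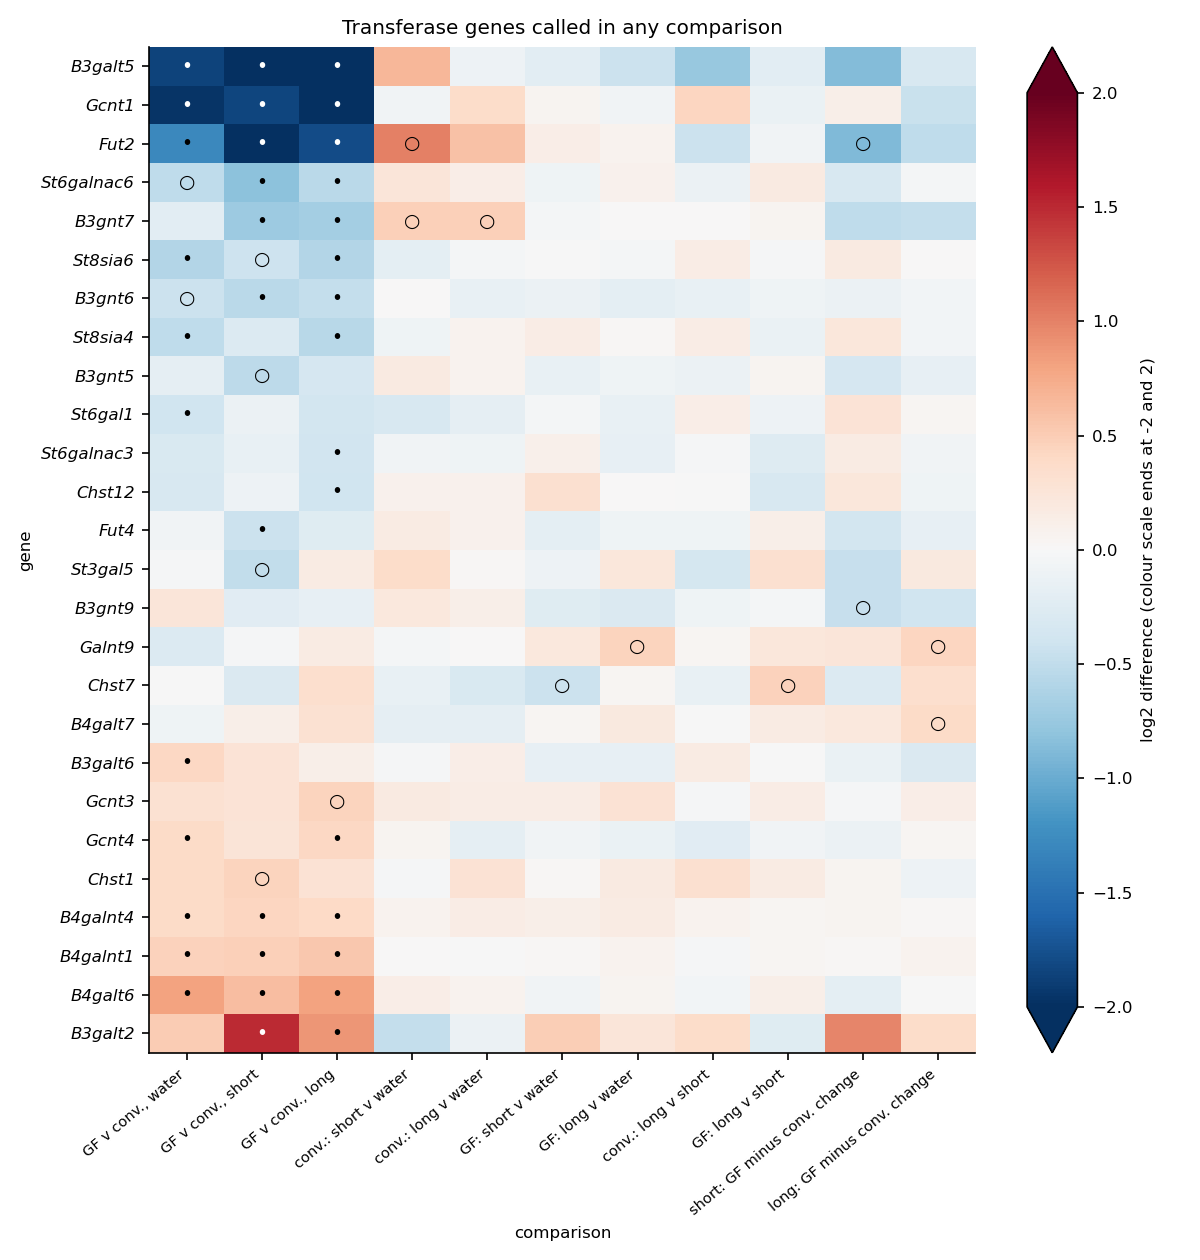
Log2 differences (colour) of the 26 genes called in any comparison (rows, ordered by germ-free minus conventional mice) in 11 comparisons (columns; conv. conventional, GF germ-free). Filled dots mark calls that also had an adjusted p under 0.05 and open circles calls that did not; the filled dots lie in the 3 columns of germ-free against conventional mice, and all calls in the other 8 columns are open circles.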

How the data were processed

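Terminal ileum RNA of 24 mice (100 ng each) was hybridised to Affymetrix Mouse Gene 1.1 ST arrays. The authors normalised the arrays with RMA and deposited log2 values for 35556 probe sets, with 1 value per array; the intensities before RMA were not used here, and no depth applies, so that the number of arrays limits the precision. The methods of the study name a remapped probe definition, whereas the rows carry the manufacturer's probe set numbers, so that the annotation used by the authors is not settled. Names came from the platform annotation: 21218 probe sets had 1 symbol, 1881 several and 12457 none. Each of 18820 genes was represented by its own probe set with the highest mean (1386 genes had several). RMA shrinks differences of dim probe sets, and no probe set's level was set against another's, except for the median level of all genes.

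Group means of 6 groups were fitted over all 24 arrays with limma 3.58.1 (R 4.3.3; eBayes with trend), and differences, their SE and 95% confidence intervals came from this fit, with Benjamini-Hochberg adjustment over all 18820 genes. A call needed p under 0.01 and a fold change over 1.3. Exact permutation tests divided 8 mice into 4 and 4 in 35 ways (two-sided). Tables were made with Python 3.11.15, NumPy 2.4.6 and pandas 2.3.3. The fit was tested on simulated data. Groups came from the labels, which do not say that replicates shared cages. The p-values set a difference against the spread between mice within groups, and do not take in variation between cages or colonies. Members named are those called or with an adjusted p under 0.05 in any comparison, Fut2 and B3gnt7, and the 3 members of each role with the highest mean; of the other pathway genes, those called in any comparison are named. C1galt1c1, Slc35c1, Gmds, Fcsk, Gfus, Muc1, Muc2, Muc3 and Muc13 fall outside this rule and were chosen after their values were seen. The members, lists and marker genes were chosen with earlier results of these data known. Alternatives were another prior, an intensity-based moderated test, cyclic loess, the mean of a gene's probe sets, leaving out low genes, a replicate block, fits of the compared groups alone and leaving out each mouse.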

Additional observations from a re-analysis of the deposited data

Results flagged for a closer look

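Among the 26 members called in any comparison, 156 groups of 4 mice were searched for a mouse far from the other 3, by the gap to the nearest mouse over the range of the group. This found 10 values, some of them from the same mouse, where chance at 1 in 20 groups gives 7.8. In Fut2, conventional mouse 3 of the short-chain group had 6.42 while the others had 7.31 to 7.49, and germ-free mouse 4 of the long-chain group had 5.09 while the others had 4.90 to 4.91. In B3gnt7, germ-free mouse 4 of the long-chain group had 5.85. In the short-chain groups, germ-free mouse 2 had 5.35 in B3galt6, germ-free mouse 1 had 4.32 in B3gnt5, and conventional mouse 2 had 5.52 in B4galt7 and 4.79 in St8sia4. Conventional mouse 3 on water had 5.72 in Chst12, conventional mouse 4 on water had 5.78 in St6gal1, and conventional mouse 2 of the long-chain group had 2.95 in Chst7.

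Limma's test of the interaction, at an unadjusted p under 0.01 with a difference of changes over 1.3-fold, called 4 members, 2 for each fructan, where it called 0.707% (short-chain) and 0.531% (long-chain) of all genes and 0 genes passed an adjusted p of 0.05. For short-chain β2→1-fructan the difference of changes (germ-free minus conventional) was -0.88 in Fut2 (adjusted p = 0.90) and -0.46 in B3gnt9 (adjusted p = 0.90). For long-chain β2→1-fructan it was 0.39 in B4galt7 (adjusted p = 1.00) and 0.44 in Galnt9 (adjusted p = 1.00). The calls were lost without 1 mouse in 9 (Fut2), 5 (B3gnt9), 9 (B4galt7) and 12 (Galnt9) of 16 fits.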

How the results depend on the processing

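Under the alternatives, 108 results of single members were fitted again on the same arrays, and none of these changed direction. Of their 2142 values, 1959 kept their side of the threshold, 157 lost the call and 26 gained one. With genes below the median level left out, so that fewer members were tested, 7 members were called between germ-free and conventional mice over all treatments, 7 on water, 8 with the short-chain and 9 with the long-chain fructan; 0 were called in germ-free mice after short-chain or long-chain β2→1-fructan or between them, and 1 in each interaction. After cyclic loess, 2 members were called after long-chain β2→1-fructan in conventional mice, 2 between the fructans in germ-free mice and 4 in the interaction for short-chain β2→1-fructan; the cause was not tested. With only the arrays of the groups compared, 2 were called after long-chain β2→1-fructan in conventional mice, 0 with the short-chain and 2 with the long-chain fructan in germ-free mice, 1 between the fructans in conventional mice, and 1 and 0 in the interactions for short-chain and long-chain β2→1-fructan. Without 1 mouse, the number called ranged from 11 to 14 over all treatments, from 9 to 13 on water, from 10 to 15 with the short-chain and from 12 to 16 with the long-chain fructan for germ-free against conventional mice. For the fructans it ranged from 1 to 3 (short-chain) and 0 to 2 (long-chain) in conventional mice, from 0 to 2 and 1 to 2 in germ-free mice, from 0 to 2 between the fructans in conventional and in germ-free mice, and from 0 to 3 and 0 to 2 in the interactions. The replicate numbers did not pair the samples: deviations of same-numbered mice had a median correlation of 0.01 over 60 pairs (-0.14 to 0.18, with 4 over 0.1), and 6 of 24 arrays lay closest to an array of the same number. With a replicate block, 1 member was called in the interaction for long-chain β2→1-fructan, and the calls of Fut2 and Galnt9 in the interactions were lost. The number of arrays limits how small a change can be detected.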
